A study of Sus scrofa with 37 samples.

Results

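Gene expression was compared between pancreas pieces of pigs labelled High and pieces labelled Low for islet density. There were 8 High and 9 Low pieces, which are 17 of the 37 samples of the series and 17 of the 35 with a column of counts. The tissue named in each title and the label for islet density chose them, with no measured value used. Each piece was 50 mg of parenchyma cut from the duodenal lobe when the organ was taken out, and by the code in the title each came from another animal. The labels name no strain, age, sex or treatment for either group, and they do not say how density was scored. The islets of 16 of these organs carry a density label of their own, and in 5 organs it is not the label of the pancreas. Both groups are whole tissue, so fewer cells of a type and less RNA per cell cannot be told apart in any value below.

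The pancreas is mostly exocrine tissue. Acinar cells make digestive enzymes and their inactive precursors, load them into zymogen granules and release them into ducts, whose cells add a bicarbonate-rich fluid. This output rests on a large apparatus of ribosomes, the channel that passes new proteins into the endoplasmic reticulum, and chaperones that fold them. Islets are small clusters of endocrine cells spread through this tissue, and they release insulin, glucagon and somatostatin into the blood. Islet density is of interest in pigs because their islets are studied as a source for transplantation.

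The columns of the 2 groups differed in depth. The 8 High columns held 1855075 to 3922006 gene counts, with a mean of 3031476 ± 621941 (SD, n = 8). The 9 Low columns had a mean of 728007 ± 764984 (SD, n = 9), and this difference exceeded the spread between samples (exact two-sided permutation test, p = 0.000247). Among them, 2 columns exceeded 1000000 counts, Low replicate 2 with 2234639 and Low replicate 9 with 1884982, and they are called the deep Low columns here. The other 7 held 265000 to 536014 counts and are called the shallow Low columns. The animal codes of 6 of these 7 begin with 14, and no High animal has such a code, so the label, the depth and this run of codes cannot be told apart. Both deep Low organs gave islets that were labelled High.

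The shallow columns also stood apart in make-up. A count of 3, used as a floor, was worth 5.60 to 11.3 CPM, which are counts scaled to a column total of 1000000, in the shallow columns and 0.765 to 1.62 CPM in the High columns. Their 10 largest genes took 53.3% to 71.7% of the counts, against 30.4% to 45.1% in High and 37.6% and 29.3% in deep Low replicates 2 and 9. Gene identifiers with no matched symbol took 62.4% to 77.9% of the shallow counts and 28.3% to 37.5% of the High counts, with 38.0% and 33.8% in the deep Low columns. As an example, ENSSSCG00000032395 took a median of 12.7% of a shallow column, 1.29% of a High column and 2.73% and 1.49% of the deep Low columns. A further identifier, ENSSSCG00000038753, took a median of 5.40% of a shallow column against 0.168% of a High column. On the first principal component of log2 expression, which held 53.9% of the variance, the 7 shallow columns lay between 71.3 and 117 and the other 10 between -85.8 and -38.7. High replicate 7, the shallowest High column, lay at -38.7, beside the deep Low columns at -49.4 and -42.9.

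The number of genes with at least 1 count was similar as deposited. It averaged 17285 ± 1666 (SD, n = 8) in High and 17253 ± 1804 (SD, n = 9) in Low, a difference within the spread (exact two-sided permutation test, p = 0.971). After every column was thinned at random to 265000 counts, High averaged 10934 ± 1290 genes (SD, n = 8) and Low 15032 ± 1575 (SD, n = 9), and the difference exceeded the spread (exact two-sided permutation test, p = 0.000329). The thinned shallow columns held 12756 to 16776 genes, the deep ones 13140 and 13621, and the High ones 9840 to 13724. The highest of the High values was that of replicate 7.

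**Figure D1:**
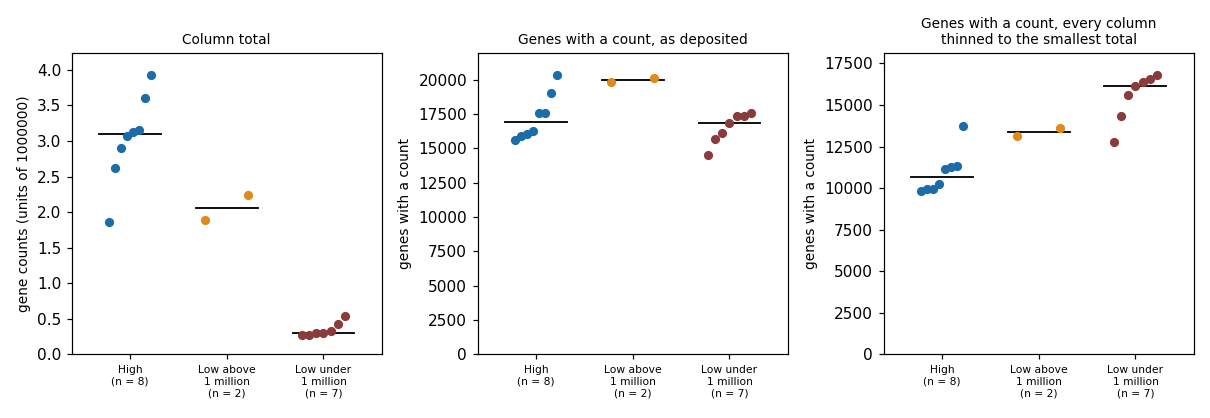
Column totals in units of 1000000 counts (left), genes with at least 1 count as deposited (middle) and after thinning every column to 265000 counts (right), with 1 point per column and a line at the median of each kind. The 7 shallow Low columns lie at the bottom of the first panel and, with 1 exception near the deep Low columns, at the top of the third.

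Of 10634 genes tested over all 17 columns, 4283 (40.3%) differed between High and Low at an adjusted p under 0.05 in edgeR's quasi-likelihood test with Benjamini-Hochberg adjustment, which gives every adjusted p below. Of these, 1998 (18.8%) were higher in High and 2285 (21.5%) lower. Under upper-quartile scaling, which moved the median over all genes on the log2 scale from 0.07 to -0.11, 1467 were higher and 2772 lower. Without High replicate 7 the count over all columns was 4892. Against the 7 shallow Low columns, 6748 of 10822 genes (62.4%) passed. The calls differed by depth. Against the 2 deep Low columns, 0 of 13217 (0%) passed in edgeR, with 1222 (9.25%) at an unadjusted p under 0.05 and a lowest adjusted p of 0.231. DESeq2 called 94 genes in that comparison, 90 of them higher in High (4 lower), among the 918 most abundant genes, to which alone it gave an adjusted p, and limma-voom called 0. Without Low replicate 2 the edgeR count was 107, of which 105 were lower in High, and without Low replicate 9 it was 0. Each of these leaves 1 Low column, with the spread taken from the High columns alone, so the 107 describe Low replicate 9, and 13 of the 17 endocrine granule genes are among the calls.

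The 9 Low columns were then compared among themselves. Between the 7 shallow and the 2 deep columns, all labelled Low, 2278 of 4895 genes (46.5%) passed, 1114 (22.8%) higher and 1164 (23.8%) lower in the shallow columns. With the 6 animals whose code begins with 14 left out of the comparison of High and Low, 0 genes passed and 2183 had an unadjusted p under 0.05. With log2 of the column total in the model, 0 passed and 533 had an unadjusted p under 0.05. The first of these fits keeps 3 Low columns, and the second adds a term that moves with the label, so neither isolates the shallow columns.

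Calls also followed the abundance of the gene. When the 10634 genes were ranked by their mean level over the 17 columns and cut into 5 equal groups, 46.1% of the most abundant group were called higher in High and 5.64% lower. In the least abundant group 4.23% were called higher and 37.5% lower. A few counts in a shallow column suffice for the filter on low counts, so genes of this group may have passed through Low columns where they are high. The excess of lower calls there can be built in by the filter and is only described. Against the deep Low columns the median log2 fold change went from -0.20 in the least abundant group to 0.16 in the most abundant one.

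The called genes were then followed in the comparison of High with the deep Low columns alone. That comparison lies inside the one over all columns, with the same 8 High and 2 deep columns, so signs would match in part by construction and the shares below are descriptions. Of all 13217 genes tested against the deep columns, 6516 had a positive log2 fold change. Of the 1998 genes called higher in High, 1902 (95.2%) had a positive log2 fold change against the deep columns. Their median log2 fold change was 1.11 against all Low columns, 1.88 against the shallow ones and 0.37 against the deep ones. Of the 2285 called lower, 2253 were tested there and 1886 (83.7%) kept a negative sign, with medians of -1.64 over all, -1.93 against the shallow and -0.45 against the deep columns. A stricter reading asks that both deep Low columns lie outside the whole range of the 8 High columns. This held for 256 of the 1998 (12.8%), where 3.42% of all tested genes had both deep columns below every High column. It held for 191 of the 2285 (8.36%), where 2.97% of all had both above. All 9 Low columns lay below all 8 High columns for 196 genes (1.84%) and above them for 98 (0.922%).

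The genes that were higher in High were led by digestive enzymes and by the machinery that makes secreted proteins. Of 8 tested proteases and their inhibitors, 8 were higher in High and 0 lower, where 18.8% of all tested genes were higher. Their median log2 fold change was 2.72 and that of all tested genes 0.07. Of 7 tested genes on the list of lipases, amylase and ribonuclease, 7 were higher and 0 lower, with a median of 2.50. RNASE1 was the only ribonuclease among these 7, and no amylase gene was among them. The summed protease genes took 8.95% to 19.5% of the counts of a High column, 0.658% to 1.41% of a shallow Low column, and 7.23% and 4.95% of the deep Low columns. Against the deep Low columns alone the median log2 fold changes were 1.38 for the proteases and 1.36 for the lipases, and 0 members of either list passed. With log2 total as covariate over all columns the medians were 1.0 and 0.91, and 0 members passed.

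CPA1, which encodes the precursor of a carboxypeptidase, had 35838 to 76172 scaled CPM in High with a median of 50818, 3203 to 6755 in the shallow Low columns with a median of 4067, and 23149 and 16189 in deep Low replicates 2 and 9. Scaled CPM are CPM taken on the library size after TMM scaling. The 3 kinds of column did not overlap, and the shallow values rested on 808 to 2198 counts. The log2 fold change of High over all Low was 2.72 (SE 0.45, adjusted p = 0.000131), and over the deep Low columns it was 1.45 (SE 0.47, adjusted p = 0.377). DESeq2 called CPA1 in the latter comparison (log2 fold change 1.44, adjusted p = 1.45e-05). The shallow columns were also below the deep ones within Low, by a difference of -1.78 on the log2 scale (SE 0.44, adjusted p = 0.00151).

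PNLIP, pancreatic lipase, had 23028 to 56622 scaled CPM in High, 1986 to 5715 in the shallow columns and 14364 and 13616 in the deep ones. Its log2 fold change was 2.67 (SE 0.45) over all Low columns and 1.51 (SE 0.50) over the deep ones. CELA2A, an elastase, had 3465 to 12831 scaled CPM in High, 323 to 833 in the shallow columns and 1793 and 2163 in the deep ones. All 9 Low values of both genes lay below all 8 High values. KLK1, tissue kallikrein, a protease that releases kinins, had 646 to 1661 scaled CPM in High, 5.03 to 97.0 in the shallow columns and 294 and 296 in the deep ones. It had the largest log2 fold change of the protease list, 3.25 (SE 0.53) over all Low columns, but its shallow values stood on only 1 to 29 counts. Against the deep columns its log2 fold change was 1.80 (SE 0.39, adjusted p = 0.301). DESeq2 also called KLK1, CELA2A and PNLIP against the deep columns, with adjusted p of 4.6e-05, 0.000893 and 0.000533.

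PLA2G1B, the pancreatic phospholipase, had 13286 to 36451 scaled CPM in High, 1514 to 2602 in the shallow columns and 11886 and 9458 in the deep ones. CEL, the carboxyl ester lipase, had 5415 to 17666, 347 to 2474, and 4269 and 2731 in the same order. For both, the deep Low columns lay below every High column and above every shallow one. Their log2 fold changes over the deep columns were 1.36 (SE 0.48) and 1.49 (SE 0.49).

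The deep Low values of 3 further enzymes were lower but overlapped with High. CPB1, a further carboxypeptidase precursor, had 16546 to 43633 scaled CPM in High and 16608 and 7961 in the deep Low columns, so deep Low replicate 2 was just above the lowest High value. PRSS2, a trypsinogen, had 7158 to 51127 in High and 15458 and 5303 in the deep columns. RNASE1, a secreted ribonuclease, had 1049 to 3716 in High and 1053 and 483 in the deep columns. SERPINI2, a serpin made by the pancreas, had 1049 to 2532 in High and 959 and 444 in the deep columns, both under the High range, and unlike these 3 it did not overlap. In the shallow columns all 4 were lower still, at 1562 to 2758, 1198 to 2830, 134 to 262 and 65.4 to 205 scaled CPM. Over all Low columns the log2 fold changes of these 4 ran from 2.64 to 2.76, and their adjusted p from 0.000111 to 0.000378. Trypsins and elastases have near-identical copies that may share reads, which leaves these counts uncertain.

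In 2 lipase-related genes the deep values lay inside the High range. PNLIPRP2, a lipase-related protein, had 250 to 1197 scaled CPM in High and 901 and 265 in the deep columns, both inside the High range, with log2 fold changes of 1.5 (SE 0.42) over all Low columns and 0.45 (SE 0.52) over the deep ones. PNLIPRP1, its relative, ranged widely in High, from 1172 to 32650, and had 6936 and 6770 in the deep columns.

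**Figure D2:**
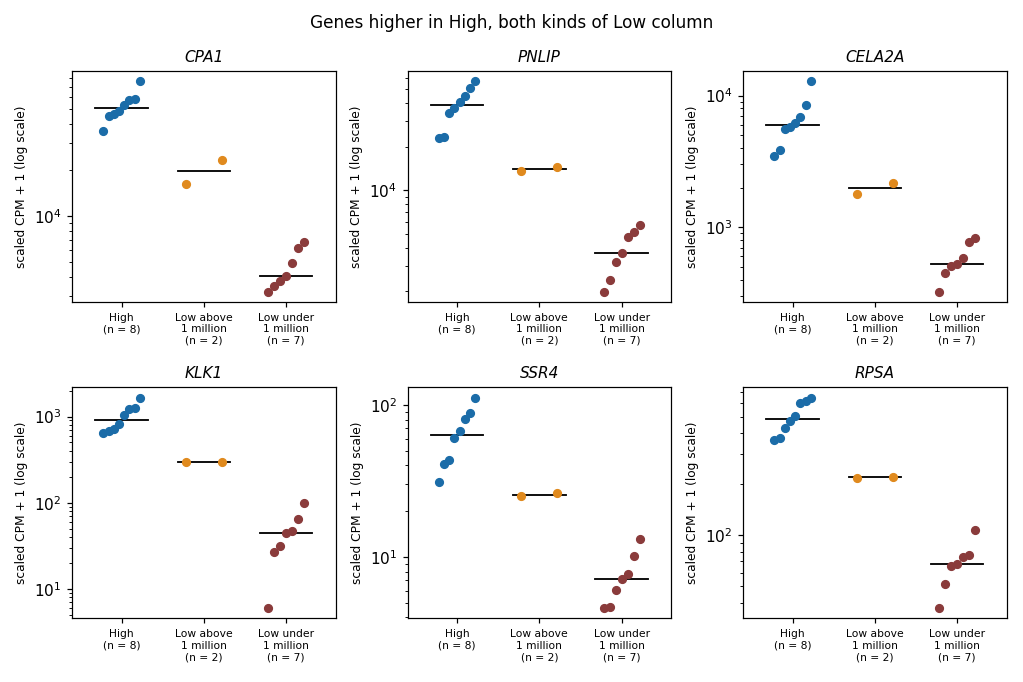
Scaled CPM + 1 on a log axis for 6 genes that were higher in High, with 1 point per column and a line at the median of each kind of column. For each gene shown both deep Low columns lie below the 8 High columns and above the 7 shallow Low columns, as for KLK1 with 294 and 296 between 646 and 97.0.

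The proteins of the zymogen granule and other acinar helpers behaved like the enzymes. Of 10 tested over all columns 10 were higher in High, where 18.8% of all tested genes were higher. Their median log2 fold change was 1.62, and that of the 11 tested against the deep columns was 0.91. ERP27, an endoplasmic reticulum protein of the pancreas, rose most, by 2.47 (SE 0.51) and by 3.11 without Low replicate 2, with 329 to 1000 scaled CPM in High, 12.2 to 60.4 in the shallow columns and 418 and 213 in the deep ones. CPA4 rose least, by 1.01 (SE 0.38, adjusted p = 0.0383), and its deep Low values of 135.1 and 157 lay inside the High range of 47.8 to 200. The call for CPA4 was lost without any 1 of the 7 shallow columns or without High replicate 8 (adjusted p of 0.0561 to 0.0795).

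Acinar transcription factors showed smaller differences. Of 9 tested, 7 were higher and 0 lower in High, where 18.8% of all tested genes were higher. Their median log2 fold change was 1.22 over all Low columns and, for the 10 tested there, 0.43 over the deep ones. BHLHA15, which sets up the secretory architecture of acinar cells, had 86.4 to 174 scaled CPM in High, 3.63 to 33.8 in the shallow columns on 1 to 11 counts, and 71.6 and 57.6 in the deep ones. Its 9 Low values lay below all 8 High values, and its log2 fold change was 1.89 (SE 0.34) over all Low columns and 0.99 (SE 0.26) over the deep ones. RBPJL, a subunit of the acinar PTF1 complex, had 247 to 421 scaled CPM in High, 56.9 to 200 in the shallow columns and 256 and 212 in the deep ones. It rose by 1.13 (SE 0.31), and 1 of the 2 deep values lay inside the High range. PTF1A, the DNA-binding subunit of that complex, did not pass, with a difference of 0.60 on the log2 scale (SE 0.42, adjusted p = 0.256) over all Low columns and -0.01 (SE 0.30) over the deep ones. It had no count in 3 shallow columns, 13.2 to 27.1 scaled CPM in High and 23.6 and 16.8 in the deep columns. HNF4G, a nuclear receptor, had the lowest fold of the list, with 5.12 to 14.6 scaled CPM in High, 0 to 18.3 in the shallow columns and 18.5 and 15.1 in the deep columns, both above the High range. Its log2 fold change was 0.03 (SE 0.43, adjusted p = 0.965) over all Low columns and -0.59 (SE 0.32) over the deep ones.

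The route by which new proteins enter the secretory pathway moved with the enzymes. Of 35 tested genes of translocation and early secretion, 29 were higher in High and 0 lower, where 18.8% of all tested genes were higher. Their median log2 fold change was 1.39. Against the deep columns 35 of 37 had a positive sign, as had 6516 of all 13217 tested genes, and the median of the list was 0.45. In 8 both deep columns lay below every High column, as in 3.42% of all tested genes. With log2 total as covariate the median over all Low columns was 0.07, with 20 of 35 positive and 0 called. TMED10, a cargo receptor between the endoplasmic reticulum and the Golgi, had 200 to 422 scaled CPM in High, 10.9 to 63.6 in the shallow columns and 138 and 174 in the deep ones. It rose most of the list over all Low columns, by 2.23 (SE 0.43), and had a log2 fold change of 0.95 (SE 0.30) over the deep ones. SSR4, a subunit of the complex that sits beside the translocation channel, had 30.02 to 111 scaled CPM in High and 24.0 and 25.3 in the deep columns. Over the deep columns its log2 fold change was 1.42 (SE 0.45), while its shallow values of 3.63 to 12.0 stood on 1 to 4 counts.

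Chaperones and other genes of the unfolded protein response, which adjusts folding capacity to load, were higher in High for 16 of 19 tested and lower for 0. Among all tested genes 18.8% were higher. The median log2 fold change of the list was 1.51. Over the deep columns the median was 0.49, and in 1 member both deep columns lay under the High range, as in 3.42% of all tested genes. With log2 total as covariate the median over all Low columns was 0.05, with 12 of 19 positive. SEL1L, an adaptor in the disposal of misfolded proteins, rose most, by 2.03 (SE 0.43), with 437 to 1012 scaled CPM in High, 46.8 to 206 in the shallow columns and 450 and 327 in the deep ones. HSPA5, the main chaperone of the endoplasmic reticulum, had 248 to 486 scaled CPM in High, 25.2 to 73.8 in the shallow columns and 178 and 384 in the deep ones, so the deep columns lay on either side of much of the High range. Its log2 fold change was 1.69 (SE 0.44) over all Low columns, 2.28 without Low replicate 9, and 0.30 (SE 0.32) over the deep ones. CRELD2, another member, had 9.15 to 29.5 in High and 11.1 to 35.2 in the shallow columns and did not pass, at 0.27 (SE 0.31).

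Genes of protein synthesis were also higher in High. Of 42 tested cytosolic ribosomal protein genes, 41 were higher in High and 0 lower, where 18.8% of all tested genes were higher. Their median log2 fold change was 2.0. Of 21 translation factors 19 were higher and 0 lower, with a median of 1.5. Against the deep columns the medians were 0.80 and 0.59, positive for 41 of 42 and 21 of 21, where 6516 of all 13217 tested genes were positive. In 17 ribosomal genes both deep columns lay below every High column, as in 3.42% of all tested genes. With log2 total as covariate the medians over all Low columns were 0.41 and 0.27, with 0 called. Ribosomal protein genes took 0.899% to 1.53% of a High column, 0.0942% to 0.169% of a shallow one, and 0.937% and 1.12% of the deep ones, so the summed share of the deep columns lay within the High range. RPSA, a protein of the small ribosomal subunit, had 365 to 649 scaled CPM in High, 36.3 to 107 in the shallow columns and 218 and 221 in the deep ones, with a log2 fold change of 1.23 (SE 0.29) over the deep columns. RPS12, of the same subunit, rose most of its list, by 2.61 (SE 0.51), with 210 to 450 in High, 3.63 to 33.1 in the shallow columns on 1 to 11 counts, and 199 and 150 in the deep ones. TPT1, a conserved growth-related protein, led the factors at 2.46 (SE 0.52), and its deep values of 2120 and 1603 straddled the lowest High value of 1673. Many ribosomal genes have pseudogenes, so their counts are uncertain.

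By the rule that named genes, which asks that both deep Low columns lie below the High range, 202 genes with a symbol qualified, and the 12 with the largest fold over the deep columns are described here. The enzymes KLK1, CELA2A, PNLIP, CEL, CPA1 and PLA2G1B were 6 of them and SSR4 was a seventh. YBX3, an RNA-binding protein, had 160 to 384 scaled CPM in High, 29.7 to 123 in the shallow columns and 77.0 and 121 in the deep ones. Its shallow and deep columns were not called different within Low (log2 fold change -0.70, SE 0.40, adjusted p = 0.146), and High exceeded the deep columns by 1.38 (SE 0.32). LPL, lipoprotein lipase, had 115 to 287 in High, 11.1 to 49.2 in the shallow columns and 88.6 and 56.9 in the deep ones. ITGA6, an integrin subunit that binds laminin, had 112 to 357 in High, 12.2 to 111 in the shallow columns and 89.7 and 99.7 in the deep ones. CTBS, a lysosomal enzyme, had 22.1 to 76.6 in High and 20.7 and 10.2 in the deep columns. MPV17L, a membrane protein, was at the level of few counts, 4.90 to 23.1 scaled CPM in High and 3.996 and 1.05 in the deep columns. It was the only 1 of these 12 whose shallow values, up to 7.42, entered the High range, and its call over all columns was lost without Low replicate 9 (adjusted p = 0.0522).

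**Figure D3:**
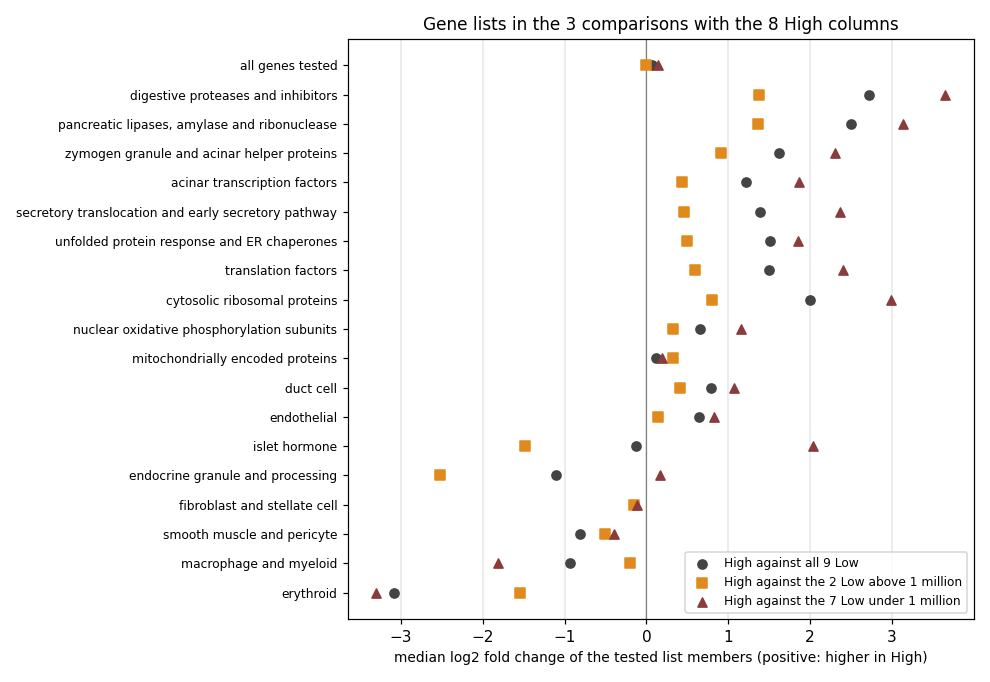
Median log2 fold change (positive: higher in High) of the tested members of 18 gene lists and of all genes tested, against all 9 Low, the 2 deep Low and the 7 shallow Low columns, which share the 8 High columns. The acinar and protein synthesis lists lie to the right of 0 in the 3 comparisons, nearest to 0 against the deep columns, while islet hormone genes lie at -1.49 against the deep columns and above 0 against the shallow ones.

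Energy genes moved less. Of 46 tested nuclear genes of oxidative phosphorylation, 18 were higher and 1 lower in High, where 18.8% of all tested genes were higher and 21.5% lower. Their median log2 fold change was 0.65, and the median over the deep columns was 0.32. Of 13 genes encoded in the mitochondrial genome, 1 was higher and 1 lower. ATP6, a subunit of ATP synthase, had 3476 to 12162 scaled CPM in High, 1522 to 4593 in the shallow columns and 4713 and 3640 in the deep ones, and it rose by 1.11 (SE 0.37). ND6, a subunit of complex I, had 564 to 2506 in High, 1993 to 7479 in the shallow columns and 1772 and 780 in the deep ones, and it fell by 1.28 on the log2 scale (SE 0.43). The call for ND6 was lost without High replicate 3, 4, 7 or 8 (adjusted p of 0.0519 to 0.0615). ND6 lies on the other strand from the rest of these genes, and the strand setting of the counts is not given in the sources used here. Over all columns 7 of 12 heat shock genes were higher and 0 lower, where 18.8% of all tested genes were higher. The cytosolic chaperone HSP90AB1 led them at 1.63 (SE 0.38). The deep values of HSP90AB1, 327 and 486, reached into the High range of 386 to 908.

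Among genes lower in High, 77 with a symbol and a mean of at least 10 scaled CPM in the deep columns had both deep columns above all 8 High columns. KSR2, a scaffold of the MAP kinase cascade, had 2.08 to 6.13 scaled CPM in High, 14.5 to 33.8 in the shallow columns and 10.9 and 10.5 in the deep ones. Its log2 fold change was -2.66 (SE 0.35) over all Low columns and -1.76 (SE 0.40, adjusted p = 0.301) over the deep ones. KSR2 passed the filter on low counts through the Low columns, where it is high, so its values are only described. MED12L, related to a subunit of the Mediator complex, had 2.67 to 14.7 in High, 21.3 to 52.0 in the shallow columns and 17.1 and 28.1 in the deep ones. PCDHAC2, a protocadherin, had 1.85 to 10.01 in High, 25.2 to 83.6 in the shallow columns and 15.6 and 22.5 in the deep ones, and it shares parts of its transcript with its gene cluster, so its counts are uncertain.

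ST8SIA2, which adds polysialic acid to proteins, SCN3A, a sodium channel, and BTBD8 also had all 9 Low columns above all 8 High columns. Of these, SCN3A had 2.08 to 8.99 scaled CPM in High, 10.9 to 35.2 in the shallow columns and 10.5 and 23.5 in the deep ones. These are low levels, and the shallow values of KSR2, MED12L, ST8SIA2, SCN3A and BTBD8 stood on 3 to 15 counts. Genes this low in High may have passed the filter on low counts through the Low columns, where they are high. Nothing is therefore read from their calls or from the lack of overlap. The other 6 genes named by the same rule overlapped through 1 or more shallow columns. The motor protein gene KIF5C had the largest fold against the deep columns, -2.36 (SE 0.47), with 3.69 to 13.3 scaled CPM in High and 14.2 and 62.8 in the deep columns. RGS2, a brake on G protein signalling, had 9.72 to 19.2 in High, 0 to 35.2 in the shallow columns and 25.4 and 90.9 in the deep ones, with log2 fold changes of -2.08 (SE 0.34) over the deep columns and -0.25 against the shallow ones. Its fall over all columns, by 1.19 (SE 0.39), was lost without Low replicate 9 (adjusted p = 0.193) and without High replicate 4 (adjusted p = 0.0592). SCN9A, a further sodium channel, had 5.56 to 26.3 in High, 10.9 to 61.0 in the shallow columns and 47.9 and 51.2 in the deep ones. SST, the somatostatin gene, qualified too and is given with the hormones. CCDC60 and DPYSL3, a cytoskeletal regulator, completed the set with log2 fold changes of -1.95 (SE 0.57) and -1.69 (SE 0.57) over the deep columns.

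Among genes with a symbol and a median of at least 30 counts in the shallow columns, the 4 largest falls were in small nucleolar RNAs, guides for the chemical modification of ribosomal RNA. None of the 4 was called against the deep Low columns. SNORA66 had 1.85 to 36.7 scaled CPM in High, 947 to 1254 in the shallow columns on 200 to 408 counts, and 49.4 and 21.1 in the deep ones. Its log2 fold change was -5.51 (SE 0.71, adjusted p = 2.92e-05) over all Low columns and -0.97 (SE 0.72, adjusted p = 0.721) over the deep ones, and within Low the shallow columns exceeded the deep ones by 5.17 (SE 0.58, adjusted p = 6.08e-08). SNORA75 had 5.19 to 24.5 in High, 186 to 378 in the shallow columns and 19.3 and 13.7 in the deep ones. SNORA9 had 1.48 to 47.5, 85.4 to 415, and 49.8 and 12.6 in the same order. SNORA21 had 55.6 to 289, 512 to 1017, and 61.0 and 109. Small nucleolar RNAs lie in introns of other genes, and reads of a host transcript cannot be told apart from theirs here. Of 35 tested small non-coding RNAs, 8 were higher and 6 lower in High, and 8 and 11 without Low replicate 9. Among all tested genes 18.8% were higher and 21.5% lower, so the counts over all columns were near the background.

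The next genes by the same rule encode nuclear proteins. LUC7L3, a splicing factor, had 300 to 405 scaled CPM in High, 1281 to 1899 in the shallow columns on 357 to 523 counts, and 519 and 375 in the deep ones. TSPYL2, a nuclear protein, had 32.3 to 61.3 in High, 102 to 383 in the shallow columns and 91.5 and 91.6 in the deep ones, so all 9 Low columns lay above all High columns. Over the deep columns its log2 fold change was -0.95 (SE 0.21, adjusted p = 0.301). FAM50A, a further nuclear protein, had 20.8 to 62.4 in High and 85.4 to 280 in the shallow columns, with 30.5 and 35.1 in the deep ones, inside the High range.

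**Figure D4:**
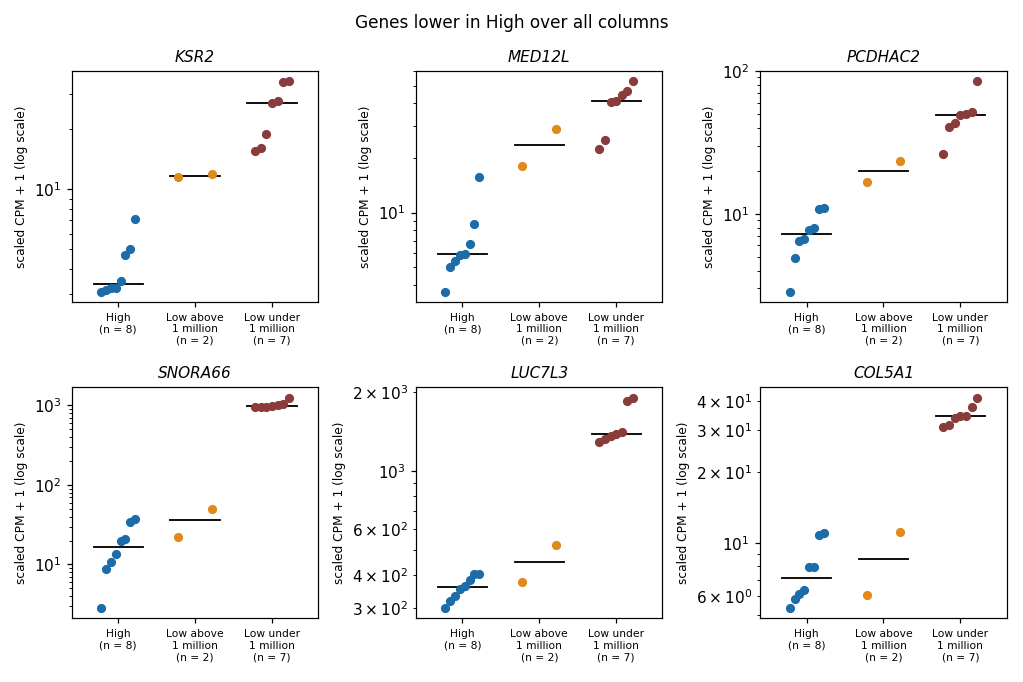
Scaled CPM + 1 on a log axis for 6 genes that were lower in High over all columns, with 1 point per column and a line at the median of each kind. Both deep Low columns lie above the High columns for KSR2, MED12L and PCDHAC2, while for SNORA66, LUC7L3 and COL5A1 at least 1 deep column lies in the High range and the 7 shallow columns lie above both.

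Hormone genes were divided within the Low group. Of 4 tested hormone genes, 0 were higher in High and 1 lower, where 18.8% of all tested genes were higher and 21.5% lower. Without Low replicate 9, of 3 tested, 2 were higher and 0 lower, where 2505 of all 10419 tested genes were higher and 2487 lower. These genes are too few to set against the background. DESeq2 on all 17 columns, with its default replacement of outlying counts, called 1 of the 4 higher and 0 lower. INS, the insulin gene, had 264 to 1436 scaled CPM in High with a median of 591, 74.2 to 256 in the shallow Low columns, 241 in deep Low replicate 2 and 5162 in deep Low replicate 9. The Low group thus held both the lowest values and the highest one. Its log2 fold change was -0.09 (SE 0.70, adjusted p = 0.930) over all Low columns and 1.86 without Low replicate 9 (adjusted p = 0.000379). GCG, the glucagon gene, had 87.1 to 515 in High, 29.05 to 83.0 in the shallow columns, and 177 and 1274 in the deep ones, with a difference of 0.49 on the log2 scale (SE 0.64, adjusted p = 0.559) over all Low columns and 1.97 without Low replicate 9 (adjusted p = 0.000461). PPY, pancreatic polypeptide, had 0 to 39.8 in High and 16.3 and 14.4 in the deep columns, with a difference of -0.17 on the log2 scale (SE 0.72, adjusted p = 0.872).

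SST had 5.86 to 26.1 scaled CPM in High, 3.71 to 23.4 in the shallow columns on 1 to 7 counts, and 30.9 and 60.01 in the deep ones. It was lower in High by 0.94 on the log2 scale (SE 0.37, adjusted p = 0.0479). This call was lost without Low replicate 8 or 9 or High replicate 2, 3, 5, 6, 7 or 8 (adjusted p of 0.0516 to 0.215). The shallow columns had less of it than the deep ones within Low, by a difference of -1.24 on the log2 scale (SE 0.45, adjusted p = 0.0256). Of 14 genes of endocrine granules and hormone processing, 1 was higher and 5 lower in High, where 18.8% of all tested genes were higher and 21.5% lower. Without Low replicate 9, 5 were higher and 2 lower, and DESeq2 on all 17 columns gave 5 higher and 2 lower. DESeq2 replaces outlying counts in groups of this size by default. It was not examined whether it replaced values of Low replicate 9, so its counts are no separate support. CHGA, a granule protein, had 97.9 to 411 scaled CPM in High, 61.7 to 111 in the shallow columns, 89.7 in deep Low replicate 2 and 1497 in deep Low replicate 9. It did not pass over all columns (log2 fold change -0.37, SE 0.59) and had a log2 fold change of 1.16 without Low replicate 9 (adjusted p = 0.00422). PTPRN, a membrane protein of the granule, fell by 3.91 on the log2 scale (SE 0.55), with 0.366 to 4.90 scaled CPM in High, 7.26 to 50.3 in the shallow columns on 2 to 11 counts, and 2.54 and 48.4 in the deep ones. PTPRN passed the filter on low counts through Low columns, where it is high. Its fall and its place among the 5 lower genes are only described. PTPRN2, its relative, rose by 1.29 (SE 0.29), with 80.9 to 213 in High, 25.98 to 61.7 in the shallow columns and 98.4 and 73.7 in the deep ones. Against the deep columns the median of the 17 tested granule genes was -2.52, and without Low replicate 9 it was 0.86. Of 6 islet transcription factors 2 were lower in High, which is too few to set against the background, led by MYT1 at -3.01 (SE 0.56), on 2 to 18 counts in the shallow columns. MYT1 too passed the filter largely through the shallow columns, where it is high, so nothing is read from its fall.

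**Figure D5:**
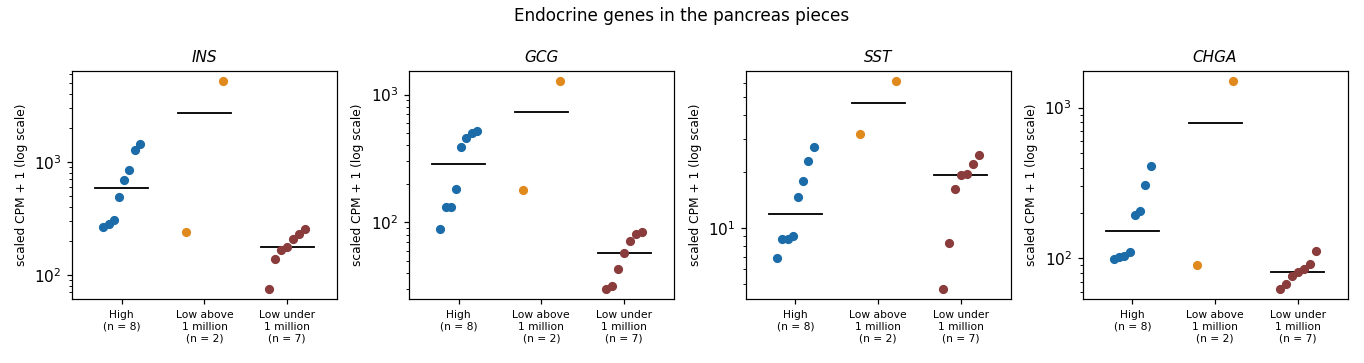
Scaled CPM + 1 on a log axis for 4 endocrine genes in the pancreas pieces, with 1 point per column and a line at the median of each kind. Low replicate 9 is the upper orange point in each panel, at 5162 for INS, and the 7 shallow Low columns lie below the High columns for INS and GCG.

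Defining markers of each pancreatic cell class were counted in the pieces of both groups. CPA1, PNLIP, RBPJL, CFTR, SOX9, INS, GCG, COL1A1 and PECAM1 had counts in all 17 columns. Not every marker did. PTF1A and the stellate marker DCN had no count in 3 shallow columns each, and the macrophage marker CD68 in 1. Some markers of lymphocytes, red cells, fat and intestine had no count in some High columns, as MS4A1 in 5. Duct genes were higher in High for 10 of 20 tested and lower for 2, where 18.8% of all tested genes were higher and 21.5% lower, with a median log2 fold change of 0.79 over all Low columns and 0.41 over the deep ones. TFF2, a secreted trefoil peptide, had 572 to 1796 scaled CPM in High, 113 to 195 in the shallow columns and 691 and 298 in the deep ones, and it rose by 2.41 (SE 0.39). PROM1, a membrane protein of epithelial cells, fell by 2.44 (SE 0.59), with 1.10 to 6.95 in High, 14.8 to 24.6 in the shallow columns on 4 to 8 counts, and 2.18 and 1.05 in the deep ones. PROM1 passed the filter on low counts largely through the shallow columns, where it is high, so its fall is only described. Endothelial genes were higher for 5 of 13 and lower for 1, against the same background, and under upper-quartile scaling higher for 2 and lower for 2. PLVAP, of the fenestrated vessel wall, rose by 1.17 (SE 0.37), with deep values of 32.0 and 132 at opposite ends of the High range of 34 to 171. ERG, an endothelial transcription factor, fell by 1.06 on the log2 scale (SE 0.36), on 4 to 8 counts in the shallow columns, and this call was lost without High replicate 4 (adjusted p = 0.0591).

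No tested gene of the fibroblast, smooth muscle, myeloid, neutrophil and erythroid lists was called higher in High over all columns. Of 18 matched lymphocyte genes 0 passed the filter on low counts, so nothing can be said of them. Of 16 fibroblast and stellate genes 4 were lower, which is near the 21.5% of all tested genes that were lower, and of 11 smooth muscle genes 6 were. Of the myeloid, neutrophil and erythroid lists only 10 of 17, 3 of 10 and 4 of 12 matched genes passed the filter on low counts. The tested neutrophil and erythroid genes had their highest mean level in the shallow columns, so that they passed through the group where they are high. Nothing is read from how many of them were lower, or from the lack of higher calls among them. Without Low replicate 9, 4 fibroblast and 2 smooth muscle genes were called higher in High. Over all Low columns 8 of the 16 fibroblast, 3 of the 11 smooth muscle and 3 of the 10 tested myeloid genes had a positive log2 fold change. C7 had the largest of the fibroblast list, 0.94 (SE 0.42, adjusted p = 0.0774), and -0.002 over the deep columns. COL5A1, a fibrillar collagen, had 4.36 to 10.1 scaled CPM in High, 30.1 to 40.3 in the shallow columns on 8 to 11 counts, and 5.09 and 10.2 in the deep ones. Its log2 fold changes were -1.88 (SE 0.37) over all Low columns and -0.15 (SE 0.40) over the deep ones. MARCO, a macrophage scavenger receptor, had 0 to 1.63 in High, 9.22 to 29.05 in the shallow columns on 3 to 9 counts, and 3.63 and 3.86 in the deep ones. All 9 Low columns lay above the High columns, but MARCO passed the filter through Low columns, where it is high, so nothing is read from this. SLC4A1, the anion exchanger of red cells, had 0 to 2.86 in High, 15.4 to 40.8 in the shallow columns on 5 to 11 counts, and 4.72 and 1.75 in the deep ones. The smooth muscle actin gene ACTG2 and the neutrophil protease gene MMP9 also had all 7 shallow values above the High values, with log2 fold changes of -2.40 (SE 0.53) and -3.14 (SE 0.67) over all Low columns. SLC4A1 and MMP9 belong to the erythroid and neutrophil lists set aside above, so their values are only described as well.

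Genes of tissues that a pancreas piece should lack were counted in the same columns. Their lists were added after the data were seen. Summed over 10 genes of brain neurons, the share of counts was 0.0069% to 0.0216% in the shallow columns, 0.000254% to 0.00469% in High and 0.00349% and 0.00382% in the deep ones. Only 5 of the 10 passed the filter on low counts, through the shallow columns where they are high, so no count of calls is given for them. Genes of skeletal muscle took 0.00541% to 0.0197% of the shallow columns and 0.000139% to 0.00367% of the High columns. Their part in the falls of the low-level genes above was not tested.

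Both kinds of Low column carry the same density label, and genes at opposite ends of the difference between them are described next. SLC9A3, a sodium-proton exchanger, had 21.5 to 50.3 scaled CPM in the shallow columns on 7 to 10 counts and 0.727 and 0.702 in the deep ones, a difference of 5.47 on the log2 scale (SE 0.72). VIPR2, a receptor for vasoactive intestinal peptide, RAB7B, a GTPase of the lysosomal route, and TRIM29 followed at 5.10 (SE 0.73), 5.07 (SE 0.90) and 4.71 (SE 0.70). Their High values, 0 to 2.45 for VIPR2, 0 to 4.90 for RAB7B and 0 to 2.04 for TRIM29, were near those of the deep Low columns. SLC9A3 and these genes passed the filter on low counts only through the shallow columns, where they are high. Their differences are therefore only described. In the other direction CRYZ, a quinone oxidoreductase, had 7.26 to 57.9 in the shallow columns on 2 to 19 counts, 563 and 329 in the deep ones and 386 to 702 in High. PAIP2, a regulator of poly(A)-binding protein, had 0 to 12.0 in the shallow columns and 56.3 and 71.2 in the deep ones, and ORC4, of the replication origin complex, had 0 to 11.1 against 65.4 and 43.5. PAIP2 and ORC4 in turn passed the filter through the deep columns, where they are high. SCG2, a granin, and ALB, albumin, were also lower in the shallow columns, by 4.02 (SE 0.86) and 3.89 (SE 1.09) on the log2 scale, and for both the deep mean came mostly from Low replicate 9, at 676 and 545 scaled CPM against 25.8 and 22.9 in replicate 2. Without Low replicate 9 the log2 fold change of ALB within Low was -0.50 (adjusted p = 0.640).

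The acinar lists were lower in the shallow than in the deep Low columns as well. Of 8 proteases 8 were lower, of the 7 tested lipase and ribonuclease genes 6, and of 10 zymogen granule genes 8. Of 39 ribosomal protein genes 36 were lower and of 27 secretory translocation genes 23, where 23.8% of all tested genes were lower. Within Low, 0 members of these 5 lists were higher in the shallow columns.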

How the data were processed

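The deposited table holds raw read counts per Ensembl pig gene, whole numbers that the authors gave with no scaling, and it has 25880 identifiers, and the gene name table gave a symbol for 14857 of them. FastQC, Subread, edgeR, HISAT2 2.0.2 and the genome build susScr3 appear, without their roles, in the submitters' processing notes. No source used here states the annotation or the strand setting, so reads of overlapping genes cannot be told apart.

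Each column was tied to a sample through its animal code, and 1 pancreas column matched no sample and was not used. No 2 columns of a group were identical in 64 pairs (lowest chi-square per degree of freedom 3.18), so each counted as 1 replicate. The main test was edgeR 4.0.16 under R 4.3.3 (filterByExpr, TMM scaling, robust quasi-likelihood test, two-sided, adjusted p under 0.05) in 4 fits, namely High against all Low, against the Low columns above 1000000 counts, against those under it, and the latter 2 against each other. Scaled CPM use the TMM factors of all 17 columns, and floors of 3 counts cover counting error only. Means were compared with exact permutation tests (scipy 1.17.1). DESeq2 1.42.0, limma-voom (limma 3.58.1), other scalings and filters, thinning, covariates and left-out columns were alternatives. DESeq2 ran at its default settings, which replace outlying counts in groups as large as the High and the whole Low group. The test was checked on simulated counts.

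Gene lists (37, with 4 more added after seeing the data) are described by counts and medians with no set test. The members and lists were chosen with earlier results of these data known. Named genes follow a rule. It took, in each direction, the 12 called genes with the largest fold against the deep Low columns among those whose deep columns lay outside the High range with a mean of at least 10 CPM on the higher side, the 8 largest folds among called genes with a median of at least 30 shallow counts, the extreme members of lists, the hormones, and the 5 largest folds within Low with a mean of at least 10 CPM. Genes called with opposite signs against the 2 kinds of Low column were to be named. Because 0 genes passed against the deep columns, 0 could be found, and nothing about signs is read from this. INS, for example, had log2 fold changes of -1.93 against the deep columns and 2.04 against the shallow ones. Some qualifying list members are left out for length, and PTF1A, RBPJL, HSPA5, RPSA, PNLIPRP1 and CHGA were added by role. One gene of the lists is not reported here by name.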

Additional observations from a re-analysis of the deposited data

Results flagged for a closer look

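In each group of 8 or 9 columns the highest or lowest value was set against the range of the rest by Dixon's criterion at the 95% level, on log2(scaled CPM + 1) for genes. In all, 81 measures were examined in each of the 2 groups and 12 values passed, where chance flags about 1 in 20 groups. Low replicate 9 was the highest Low column for 4 of them, INS at 5162 scaled CPM (other Low columns 74.2 to 256), GCG at 1274 (29.05 to 177), CHGA at 1497 (61.7 to 111) and SCG2 at 676.3 (6.10 to 25.8). High replicate 7 was apart in 3 measures. Its 10 largest genes took 30.41% of counts against 39.8% to 45.1% in the other High columns, and it had 3.679 scaled CPM of SLC9A3 (others 0.297 to 1.10) and 4.905 of RAB7B (others 0 to 1.10). PNLIPRP1 was lowest in High replicate 3 at 1172 scaled CPM (others 7833 to 32650), CPA4 in High replicate 5 at 47.81 (others 104 to 200) and ORC4 in High replicate 6 at 31.49 (others 42.9 to 52.6). KIF5C was 0 in Low replicate 4 (others 14.2 to 73.1) and RGS2 was 0 in Low replicate 1 (others 9.22 to 90.9), both shallow columns.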

How the results depend on the processing

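The count of 4283 genes over all columns became 10836 with no low-count filter, 7587 with a filter of 1 CPM, 274 with all columns thinned to 265000 counts (2080 genes tested), 368 when the animal code's leading digits entered as covariate (34 higher, 334 lower), 2828 among animals whose islets carry the same label (4949 genes tested), 0 among codes beginning with 12 (1819 at an unadjusted p under 0.05), 0 without codes beginning with 14 and 0 with log2 total as covariate, and it ranged from 3305 to 5044 with 1 column left out. Against the deep Low columns the count of 0 became 4 with no filter and 94 in DESeq2, and 0 to 107 with 1 column left out. Against the shallow Low columns 6748 became 14120 with no filter, 10510 at 1 CPM and 544 after thinning, and 4985 to 7524 with 1 column left out. Within Low, 2278 became 6989 with no filter and 7361 at 1 CPM, and 1966 to 2671 with 1 column left out. The share of called genes that kept their sign against the deep columns was 89.1%, and 87.4% to 94.3% over the other scalings, filters, tools and thinning. High had 32.1 more genes with a count than Low as deposited and a difference of -4098 after thinning.

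With log2 total as covariate, where 0 genes passed, the log2 fold changes of CPA4 (-0.20), PTF1A (-0.56), HSPA5 (-0.18), SNORA21 (1.15), FAM50A (0.27), GCG (-1.77), PROM1 (0.77), ERG (0.29), COL5A1 (0.054) and MMP9 (0.87) turned. INS turned to 0.059 with no filter, 1.77 in DESeq2, 1.24 in limma-voom, 1.38 with the same label in islets, 1.66 among codes beginning with 12, and -0.30 to 1.86 with 1 column left out. GCG turned to -0.40 after thinning, -0.24 with the code covariate and -0.74 without codes beginning with 14. PPY turned to 0.21 with no filter, 0.048 at 1 CPM, 0.0017 in DESeq2, 0.33 among codes beginning with 12, and -0.90 to 0.14 with 1 column left out, above 0 without High replicate 4, 5, 7 or 8. CHGA turned to 1.14 in DESeq2, 0.51 in limma-voom, 0.71 with the same label in islets, 0.92 among codes beginning with 12, and -0.59 to 1.16 with 1 column left out. HNF4G, which no setting called, turned to -0.106 under upper-quartile scaling, -0.044 in limma-voom, -0.98 with log2 total and -0.29 with the code covariate, -0.22 among codes beginning with 12, -0.33 without codes beginning with 14, and -0.13 to 0.25 with 1 column left out. CTBS against the deep columns was -0.43 after thinning. The cause of these changes was not tested. No paired analysis was possible because High and Low pieces come from different animals. In the shallow columns 3 counts are worth at least 5.60 CPM, which limits what can be seen there.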
